A study of Rattus norvegicus with 23 samples.

Results

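The comparison described here set rats with chronic kidney disease (CKD) that had received a healthy kidney (HD-CR, healthy donor to CKD recipient, n = 5) against healthy rats that had received a healthy kidney (HD-HR, n = 6). Its members were the 11 heart libraries whose titles name these groups, of 23 libraries in the series, 1 per rat. CKD loads the heart through raised blood pressure, retained salt and water, uraemic toxins and disturbed mineral hormones, and is known for hypertrophy of the ventricle, interstitial fibrosis and a loss of capillaries, together called uraemic cardiomyopathy. A kidney transplant restores filtration, while the heart has already been exposed to the disease. The comparison sets side by side hearts that have and have not met the disease, both living on a healthy kidney.

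Donors and recipients were Lewis rats, an inbred strain, so the grafts were isografts. CKD recipients had undergone coagulation of branches of both renal arteries, followed by drinking water with 200 mg/L of L-NNA, which blocks nitric oxide synthase, and by chow with 6% NaCl. Both agents were stopped when proteinuria reached 200 mg per 24 h, and a rat entered the transplant protocol when proteinuria was 100 mg per 24 h without them. HD-HR recipients were healthy rats with intact kidneys before the transplantation. Rats of both groups received a left kidney in place of their own and lost the right native kidney 10 to 14 days later, with cold and warm ischaemia of 30 min each, isoflurane anaesthesia, buprenorphine analgesia and grafts flushed with Viaspan, a preservation solution. The apex of the heart was taken 6 weeks after transplantation, after perfusion with saline. The groups thus differ in the renal ablation, the L-NNA and the NaCl as well as in CKD, and these cannot be told apart. No sex or age is stated in the labels. The tissue was not dissociated, so a change in the number of cells of one type and a change in RNA per cell cannot be told apart.

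Polyadenylated RNA was sequenced and reads were counted per gene. Depth was similar, with 9212531 to 11373022 counts in genes per HD-CR library and 7605675 to 11484365 per HD-HR library. Genes with at least 1 count numbered 14324 to 15003 in HD-CR and 14114 to 14793 in HD-HR. Of 8 measures of the libraries tested, 0 differed after adjustment (two-sided exact permutation tests, Benjamini-Hochberg). The smallest p belonged to non-unique alignments per counted read, which on a log2 scale were 0.25 ± 0.40 in HD-CR (SD, n = 5) and 1.04 ± 0.59 in HD-HR (n = 6), with an exact p = 0.026 and an adjusted p = 0.208. Reads that fell on more than 1 gene came to 1.54 to 1.97% in 4 HD-CR libraries and 1.002% in HD-CR2, against 1.14 to 1.38% in HD-HR (exact p = 0.0779, adjusted 0.251). HD-CR2 also had the lowest share of counts in its 10 most abundant genes, 51.4%, against 62.8 to 68.3% in the other HD-CR libraries and 59.0 to 63.8% in HD-HR, apart from HD-HR4 at 55.03%. The deposited animal names begin with 12 or 13, whose meaning the labels do not state. All 6 HD-HR animals and HD-CR5 carry 13, while HD-CR1 to HD-CR4 carry 12. Non-unique alignments per counted read split the same way on the log2 scale. HD-CR1 to HD-CR4 lay at -0.316 to 0.304, below all HD-HR libraries at 0.347 to 1.85. HD-CR5 lay within the HD-HR range at 0.805. Among the other 12 libraries of the series there was no such split, as a library of prefix 12 reached 1.42 and a library of prefix 13 fell to -0.246.

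Hearts of CKD recipients with a healthy kidney differed from those of healthy recipients in 71 of 11568 genes tested, or 0.614% (edgeR, Benjamini-Hochberg adjusted p under 0.05). Of these, 47 (0.406%) were higher in HD-CR and 24 (0.207%) were lower. Among called genes the rises were the larger changes and also the less precise. The median standard error was 0.378 for the rises and 0.194 for the falls, on the log2 scale. A gene with a larger error needs a larger change to be called. The 47 genes had a median log2 fold change of 1.83 (range 0.81 to 3.77), and 37 of them moved by at least 2-fold and 17 by at least 4-fold. The 24 genes that fell had a median of -0.89 (range -2.49 to -0.51), and 9 moved by at least 2-fold and 2 by at least 4-fold. Over all genes tested the median was -0.01 and 318 genes had a fitted change of 2-fold or more in either direction. The smallest adjusted p was 0.0118. Before adjustment, 2099 genes (18.1%) had a p under 0.05, of which 882 (7.62%) were higher and 1217 (10.5%) lower. With no difference at all, 578 such genes are expected on average, and the count can lie far from this when genes vary together. DESeq2 called 259 genes, which included all 71, an edgeR fit of the 11 libraries alone called 306, and limma-voom called 44, of which 40 were among the 71. For 61 of the 71 genes the libraries of the groups did not overlap, 40 upward and 21 downward. Of all genes, 3.59% did not overlap (1.82% upward and 1.77% downward). The 71 were chosen for a difference between these same libraries, so this describes them and carries no test. The deposited files give Ensembl identifiers without gene names. The gene reference at hand listed no Ensembl identifiers, so 0 of 26405 were matched to a symbol. The roles of these genes and the tissue's marker genes are therefore not described. Up to 2 genes per direction are given by identifier, those with the largest change among called genes whose mean over the 11 libraries reached 1 CPM (counts per 1e6 counts, scaled by TMM, edgeR's correction of library sizes).

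ENSRNOG00000028064 had the largest rise. Its level in HD-HR1 to HD-HR6 was 0.407, 1.20, 1.13, 0.113, 1.31 and 1.02 CPM, and in HD-CR1 to HD-CR5 it was 5.42, 5.93, 8.13, 24.0 and 17.8 CPM. All 5 CKD recipients lay above all 6 healthy recipients, with HD-CR4 and HD-CR5 standing higher than the other 3. The group levels were 0.864 ± 0.486 CPM in HD-HR (SD, n = 6) and 12.3 ± 8.26 in HD-CR (n = 5), a 13.6-fold rise (log2 3.77 ± 0.74, SE, edgeR adjusted p = 0.0299). These levels rest on 1 to 14 counts per HD-HR library and 61 to 232 per HD-CR library. Among recipients of a CKD kidney the gene spanned 0.734 to 16.3 CPM in healthy recipients (CD-HR, CKD donor to healthy recipient, n = 6) and 6.60 to 26.3 CPM in CKD recipients (CD-CR, n = 6). There the groups overlapped, because CD-HR2 stood at 16.3 CPM while the next CD-HR library was at 5.70, and the log2 fold change of 1.51 ± 0.60 did not pass (edgeR adjusted p = 0.196).

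ENSRNOG00000006151 was a gene of low level in every group. HD-HR1 to HD-HR6 had 0.509, 0.172, 0.206, 0.113, 0 and 0.254 CPM, and HD-CR1 to HD-CR5 had 1.24, 1.98, 2.96, 2.17 and 1.63 CPM. The groups did not overlap, and no single HD-CR library carried the difference. The count of 0 in HD-HR5 allows a level of up to 0.328 CPM (3 counts, counting error only). The mean was 0.209 ± 0.171 CPM in HD-HR (SD, n = 6) and 2.00 ± 0.643 in HD-CR (n = 5), an 8.94-fold rise (log2 3.16 ± 0.62, SE, edgeR adjusted p = 0.0222). With a CKD kidney the same gene stood at 1.25 ± 1.25 CPM in CD-HR (n = 6), again with CD-HR2 highest at 3.72, and at 2.11 ± 1.27 CPM in CD-CR (n = 6), where CD-CR1 and CD-CR5 were low at 0.878 and 0.720. That difference did not pass (log2 0.84 ± 0.48, edgeR adjusted p = 0.367).

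ENSRNOG00000021670 had the largest fall. Its level was 2.04, 2.06, 1.13, 3.83, 4.70 and 0.678 CPM in HD-HR1 to HD-HR6 and 0.267, 0.907, 0.185, 0.414 and 0.232 CPM in HD-CR1 to HD-CR5. HD-CR2 lay above HD-HR6, so the groups overlapped in that pair, and HD-HR4 and HD-HR5 were the high libraries. The mean fell from 2.41 ± 1.56 CPM (SD, n = 6) to 0.401 ± 0.295 (n = 5), a log2 change of -2.49 ± 0.54 (SE, edgeR adjusted p = 0.0309). With a CKD kidney it stood at 1.88 ± 1.15 CPM in CD-HR and 0.641 ± 0.397 in CD-CR (log2 -1.61 ± 0.49, edgeR adjusted p = 0.0831). HD-CR libraries held 2 to 11 counts of this gene.

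ENSRNOG00000007030 showed a tighter difference at a similar level. It was at 2.04, 2.06, 1.65, 3.15, 2.19 and 1.36 CPM in HD-HR1 to HD-HR6 and at 0.444, 0.577, 0.831, 0.207 and 0.348 CPM in HD-CR1 to HD-CR5. All CKD recipients lay below all healthy recipients. The mean fell from 2.07 ± 0.613 CPM (SD, n = 6) to 0.482 ± 0.238 (n = 5), a log2 change of -2.04 ± 0.39 (SE, edgeR adjusted p = 0.0192). In recipients of a CKD kidney it was at 1.41 ± 0.531 CPM in CD-HR and 0.647 ± 0.430 in CD-CR (log2 -1.14 ± 0.37, edgeR adjusted p = 0.103).

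The calls of these 4 genes depended on the fit more than their fold changes did. None passed with the prefix of the animal name as a covariate, among animals of prefix 13 alone, or when HD-CR4, HD-CR5 or HD-HR4 was left out. ENSRNOG00000028064 lost its call in 9 of 21 alternatives, which also included limma-voom and leaving out HD-HR1, HD-HR2 or HD-HR3, with a log2 fold change of 3.37 to 4.37 and an adjusted p of up to 0.108. ENSRNOG00000006151 lost it in 7, which also included leaving out HD-HR2 or HD-HR3 (log2 2.398 to 3.58, adjusted p up to 0.159). ENSRNOG00000021670 lost it in 11, which also included limma-voom, the covariate for non-unique alignments and leaving out HD-CR1, HD-CR3, HD-HR2 or HD-HR5 (log2 -3.23 to -2.18, adjusted p up to 0.203). ENSRNOG00000007030, the steadiest of the 4, lost it in the 5 shared alternatives only (log2 -2.47 to -1.87, adjusted p up to 0.111).

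**Figure D1:**
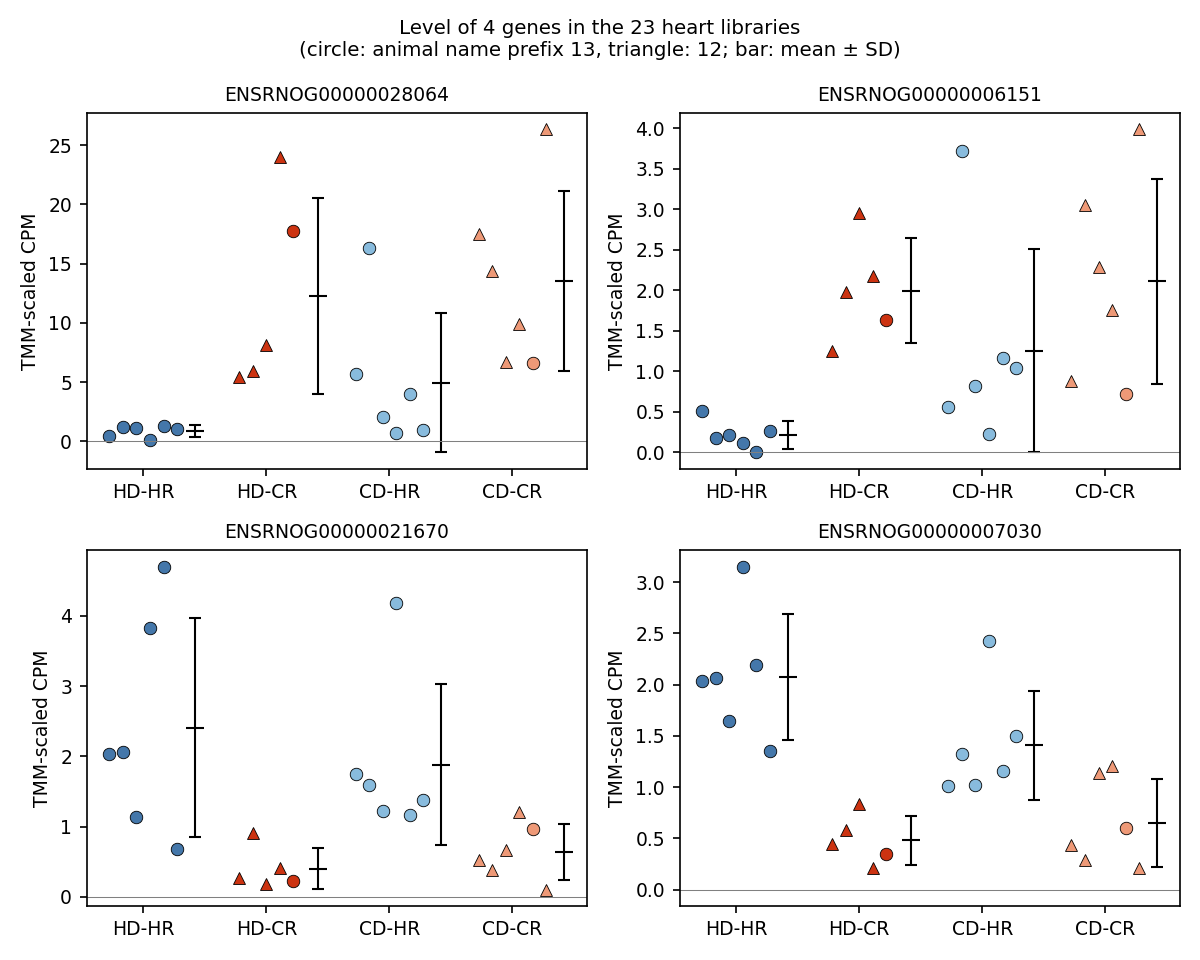
Level in TMM-scaled CPM of the 4 named genes in each of the 23 libraries, by group, with the mean ± SD beside each group; circles are animals of prefix 13 and triangles of prefix 12. For ENSRNOG00000028064 the 5 HD-CR libraries lie between 5.42 and 24.0 CPM and the 6 HD-HR libraries between 0.113 and 1.31, while CD-HR2 reaches 16.3.

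The genes that rose were mostly of low level, and those that fell of middle level. Over the 11 libraries the median level was 4.00 CPM for the 47 genes that rose, 11.3 CPM for the 24 that fell and 9.36 CPM for all genes tested. One gene that rose had a mean of 1786 CPM and accounted for most of their summed level. The summed level of the 47 genes was 2314 to 3501 CPM in HD-CR libraries and 1016 to 2101 in HD-HR libraries, and that of the 24 genes was 262 to 335 CPM in HD-CR and 433 to 565 in HD-HR. These sums describe genes chosen for this difference and carry no test.

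Precision followed level. Among 536 genes with a mean under 1 CPM over the 23 libraries the median standard error of the log2 fold change was 0.41, and 5 genes were called (0.933%), all higher in HD-CR. Among 5464 genes at 1 to 10 CPM it was 0.23, and 27 were called higher and 10 lower (0.677% together). Among 5005 genes at 10 to 100 CPM it was 0.14, and 14 were called higher and 13 lower (0.539%). Of 563 genes at 100 CPM or more, 1 was called higher and 1 lower (0.355%). The balance of directions at an unadjusted p under 0.05 changed with level, from 55 higher and 23 lower under 1 CPM to 314 higher and 644 lower at 10 to 100 CPM. With RLE scaling, another way to set library sizes, the latter counts were 357 and 595. At 100 CPM or more, 49 were higher and 93 lower with TMM scaling. This balance rested partly on HD-HR2, without which there were 318 higher and 435 lower at 10 to 100 CPM, and 844 higher and 834 lower over all levels. The called genes of these levels, counted above, were about as often higher as lower.

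**Figure D2:**
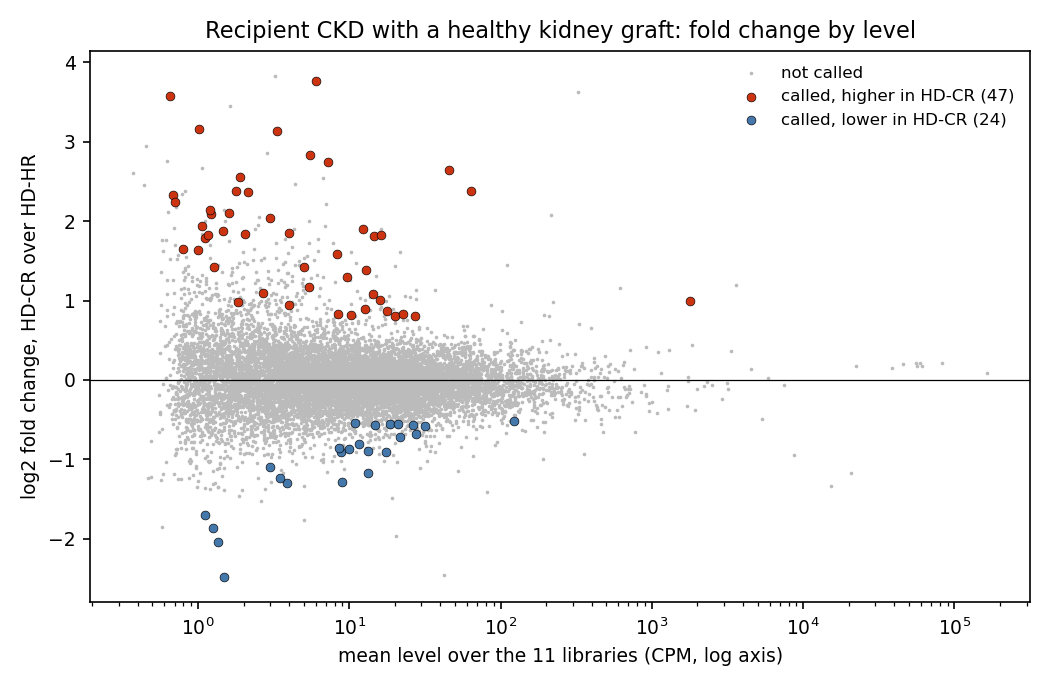
Log2 fold change of HD-CR over HD-HR against the mean level over the 11 libraries (CPM, log axis) for the 11568 genes tested. Red points are the 47 genes called higher, with fold changes of 0.81 to 3.77, and blue points the 24 genes called lower, from -2.49 to -0.51; grey points were not called.

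Across all genes the groups differed in their mean on the first principal component but did not separate fully. The first principal component of the 11 libraries held 33.5% of the variance, and HD-CR averaged 20.1 ± 14.8 on it (SD, n = 5) against -16.7 ± 20.7 in HD-HR (n = 6; two-sided exact permutation p = 0.013, adjusted 0.039 over 3 components). HD-CR4 was at one end (44.2) and HD-HR4 and HD-HR2 at the other (-41.5 and -36.2). The groups overlapped on it, since HD-HR1 stood at 12.8, above HD-CR2 (5.38) and HD-CR3 (11.1). The second component (18.5%) set HD-CR5 at 47.2 and HD-HR1 at -29.3 apart from the rest and did not differ between the groups (exact p = 0.459).

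The number of called genes rested on individual animals. Without HD-CR4 it was 6 and without HD-CR5 it was 5, all of them higher in HD-CR. Leaving out HD-HR4 gave 10, HD-HR3 14, HD-HR2 24 and HD-HR5 33, and without HD-CR2 or HD-CR3 it was 47 or 36. Without HD-CR1, HD-HR1 or HD-HR6 it was 69, 48 or 89. All 71 genes kept their direction in each of these 11 fits. Their median change in the original direction lay between 1.29 and 1.46 on the log2 scale. The genes were chosen for their change in these same libraries, so this was largely fixed by the choice and is no separate support. Of the 71 genes, 3 were called in all 11 fits, 7 in at least 9, and 46 in 5 or fewer. All 3 and all 7 were genes that rose.

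**Figure D3:**
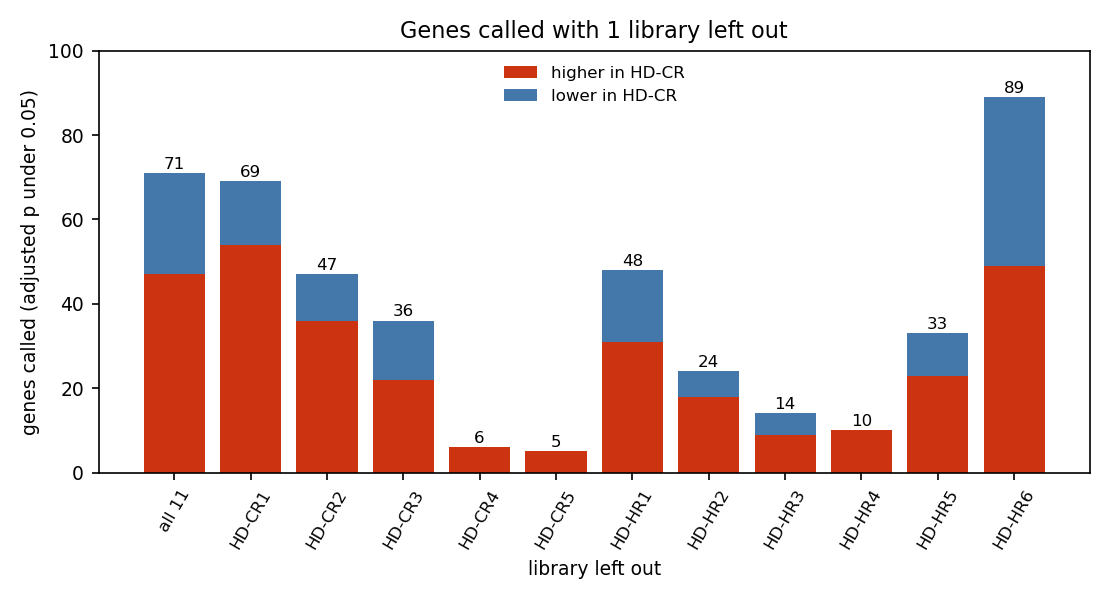
Number of genes called in HD-CR against HD-HR with all 11 libraries and with each library left out, split by direction (red, higher in HD-CR; blue, lower). The count is 71 with all libraries, 5 without HD-CR5, 6 without HD-CR4 and 89 without HD-HR6.

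The prefix of the animal name nearly coincides with the recipient's disease, and only HD-CR5 breaks the tie within these groups. A fit with the prefix as a term called 3 genes, 2 of them among the 71. All 71 genes, which were chosen in these same libraries, kept their direction. Their median change was 1.37 on the log2 scale, against 1.38 without the covariate, while the median standard error rose from 0.287 to 0.420. Among animals of prefix 13 alone, HD-CR5 against 6 HD-HR libraries, 10 genes were called, 3 of them among the 71, and the 70 genes still tested kept their direction. In that fit HD-CR5 is assumed to vary like the other groups, since a lone library has no spread of its own, and HD-CR5 also helped to choose the 71 genes. HD-CR5, which shares the prefix of the healthy recipients, deviated from the HD-HR mean by a median of 1.80 over the 47 genes and -1.21 over the 24 genes. The 4 animals of prefix 12 deviated by 1.23 to 1.79 and by -1.04 to -0.70.

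The ratio of non-unique alignments to counted reads, whose difference did not pass, was tried as a covariate. With this ratio as a covariate 83 genes were called, 59 higher and 24 lower, 51 of them among the 71. HD-CR2 had a TMM factor of 1.32, against 0.877 to 0.991 in the other HD-CR libraries. Without it and the 2 libraries of other groups that stood apart (CD-CR1 and CD-HR5) 111 genes were called, 60 of them among the 71.

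The same recipient contrast was available in animals that received a CKD kidney, with no library in common (CD-CR, n = 6, against CD-HR, n = 6). It carries the same imbalance of the prefix, as 5 of 6 CD-CR animals have 12 and all 6 CD-HR animals have 13, so for genes that moved alike in both comparisons the recipient's disease and the prefix cannot be told apart. Of the 47 genes that were higher in HD-CR, 46 had a fitted log2 fold change above 0 there, where 50.0% of all genes did. Their median was 1.07 (range -0.08 to 3.49), 40 had an unadjusted p under 0.05 in that direction (9.43% of all genes) and 23 were called (1.09%). Of the 24 genes that were lower, 23 were below 0, with a median of -0.60 (range -1.61 to 0.19). At an unadjusted p under 0.05 in that direction there were 19 of them (8.41% of all genes), and 6 were called (0.475%). The genes called in both comparisons in the same direction, 29, were 40.8% of the 71 and 16.0% of the 181 genes called with a CKD kidney (1.56% of genes tested). One model gave both lists, so a gene's spread was estimated jointly for them. The count of 181 fell to 18 without the 3 libraries that stood apart, and to 0 with the prefix as a covariate (edgeR, 1400 genes at an unadjusted p under 0.05). All 181 genes, chosen in libraries that these fits share, kept their direction in both. Their median change was 0.90 and 0.93 on the log2 scale, against 1.03 at first. The fitted change was smaller with a CKD kidney for 60 of the 71 genes, which were chosen for their size with a healthy kidney.

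**Figure D4:**
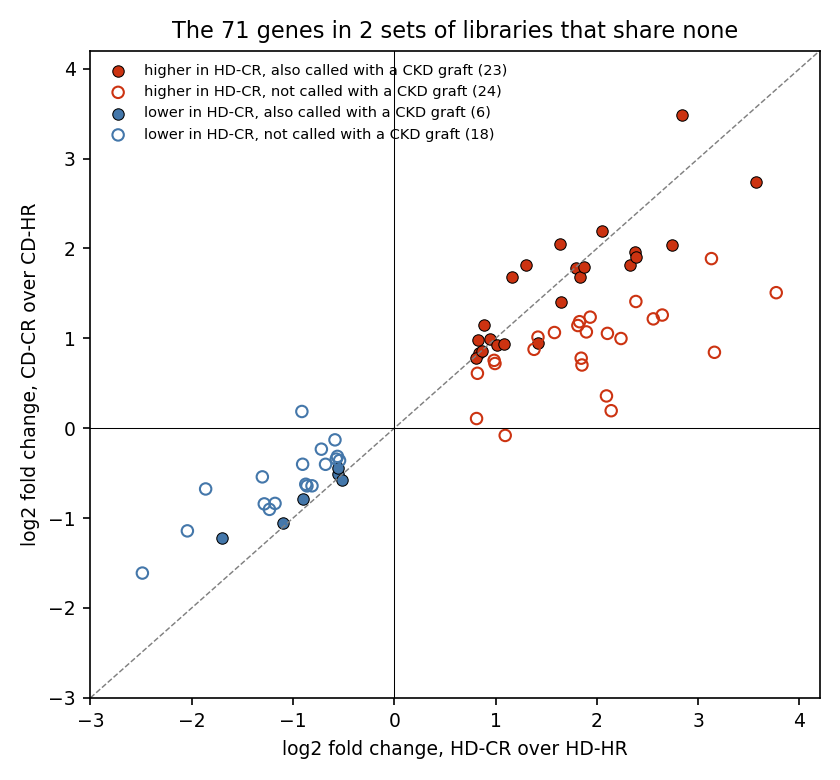
Log2 fold change between CKD and healthy recipients for the 71 genes, with a healthy kidney (x axis, HD-CR over HD-HR) and with a CKD kidney (y axis, CD-CR over CD-HR); filled points passed in both comparisons, and the dashed line marks equal change. Of the 71 points, 69 lie on the same side of 0 on both axes.

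The 71 genes were also followed in single libraries with a CKD kidney. In each, the deviation from the mean of the CD-HR libraries was taken in log2 CPM, leaving a CD-HR library out of its own reference. Over the 47 genes the median deviation was 0.82 to 1.38 in the 6 CD-CR libraries and -0.81 to 0.71 in the 6 CD-HR libraries, and over the 24 genes it was -0.66 to -0.20 and -0.32 to 0.56. For the genes that rose the groups did not overlap, with CD-HR2 at 0.71 and CD-CR4 at 0.82 the closest pair. For the genes that fell they did, since CD-HR3, a healthy recipient, was at -0.32, below CD-CR3 at -0.31 and CD-CR4 at -0.20. CD-HR2, a healthy recipient, was above its reference for 42 of the 47 genes, while CD-HR4 was above it for 3. CD-CR5, a CKD recipient, carries the prefix 13 like all CD-HR animals. Its levels were not in the contrast that chose the genes, but it entered the filter, the scaling and the estimate of spread. It was above the CD-HR mean for 43 of the 47 genes and below it for 22 of the 24. Over all genes tested it was above for 50.2%. It lay above all 6 CD-HR libraries for 21 of the 47 genes (15.8% of all genes) and below them for 15 of the 24 (14.7% of all genes). The healthy recipient CD-HR2 lay above the other 5 CD-HR libraries for 29 of the 47 genes (19.0% of all genes), more than CD-CR5 did above its 6, and below them for 4 of the 24 (17.5% of all genes).

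**Figure D5:**
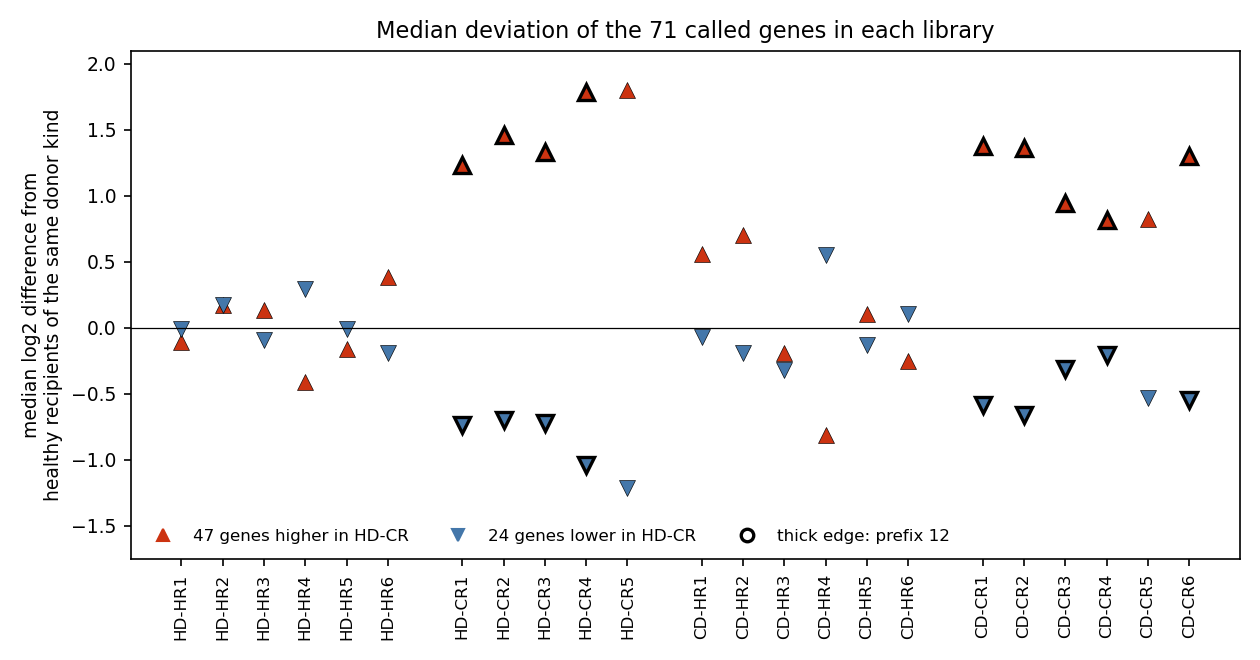
Median log2 difference of each of the 23 libraries from the healthy recipients of the same donor kind, over the 47 genes called higher (upward triangles) and the 24 called lower (downward triangles) in HD-CR; a thick edge marks prefix 12. HD-CR libraries, whose levels entered the contrast that chose the genes, reach 1.23 to 1.80 for the first set. The CD-CR libraries, which entered the same fit but not that contrast, lie at 0.82 to 1.38.

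Whether the recipient's disease acted differently with a healthy and with a CKD kidney was tested as the interaction of donor and recipient. It called 1 of 11568 genes (0.00864%), and 377 genes had an unadjusted p under 0.05 (3.26%). Of the 71 genes, 13 had an unadjusted p under 0.05 in the interaction. The interaction contains the contrast that chose these genes, so their count carries no test. The called gene was not among the 71. It was ENSRNOG00000011557, which stood at 4.07, 2.49, 3.91, 1.58, 4.15 and 3.05 CPM in HD-HR1 to HD-HR6 and at 9.33, 6.18, 9.51, 5.28 and 4.88 CPM in HD-CR1 to HD-CR5. Each CKD recipient lay above each healthy one, but the contrast itself did not pass (2.20-fold, log2 1.14 ± 0.30, SE, edgeR adjusted p = 0.0694). With a CKD kidney the gene moved the other way, from 4.77 ± 1.35 CPM in CD-HR (SD, n = 6) to 1.68 ± 0.996 in CD-CR (n = 6; log2 -1.50, edgeR adjusted p = 0.0196). The difference between the contrasts was 2.64 ± 0.44 (SE, edgeR adjusted p = 0.0304). The call was lost when any 1 of these 12 libraries was left out: HD-CR1, HD-CR2, HD-CR3, HD-HR2, HD-HR4, HD-HR6, CD-CR3, CD-CR4, CD-CR6, CD-HR2, CD-HR3 or CD-HR5.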

How the data were processed

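Reads of poly(A)-selected RNA from directional libraries were counted per gene by the authors. The submitters' processing notes name HTSeq 0.6.1p1, STAR 2.4.2a, Picard and the rat build Rnor_5.0. They give no strand setting, annotation release or handling of duplicates. Ambiguous reads and non-unique alignments were listed apart from the gene counts, so overlapping genes and near-identical copies may have lost counts. The deposited values are raw counts for 26405 Ensembl identifiers per library. The 5 summary lines of each file entered neither the library sizes nor the tests. The gene reference at hand listed no Ensembl identifiers, so 0 of 37 gene lists drawn up for this tissue could be tested, and no sequence is shown. The members and lists were chosen with earlier results of these data known.

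Groups came from the sample titles. edgeR 4.0.16 (R 4.3.3) was run once on all 23 libraries, with filterByExpr by group, TMM scaling, robust glmQLFit and glmQLFTest. Benjamini-Hochberg adjustment covered all 11568 genes kept. Named genes are the 2 per direction with the largest change among called genes of at least 1 CPM, plus any gene called in the interaction. The rule was written for gene symbols and is applied to identifiers. The SE is the log2 fold change divided by the square root of F. Log2 CPM used a prior count of 2. The code was tested on simulated data. Alternatives were DESeq2 1.42.0, limma-voom (limma 3.58.1), RLE scaling, no filter on low counts, a replicate block, the prefix as a covariate, prefix 13 alone, the compared groups alone and each library left out. Chosen after seeing the data were a covariate for non-unique alignments and leaving out the 3 libraries over 3 scaled median absolute deviations from the median in any library measure. Each library is 1 rat. No pair within HD-CR or HD-HR agreed within sampling noise (lowest chi-square per degree of freedom 8.38). 1 count equalled 0.0824 to 0.116 CPM in these 11 libraries, and amplification without stated molecular identifiers makes counting error a lower limit.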

Additional observations from a re-analysis of the deposited data

Results flagged for a closer look

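In HD-CR2 the TMM normalisation factor, which corrects for counts taken by a few abundant genes, was 1.32, far from the 0.877 to 0.991 of the other 4 HD-CR libraries. It was the only library far from its group among 26 sets of values examined (5 genes and 8 library measures in HD-CR and HD-HR), and chance flags about 1 set in 20. Without HD-CR2, 47 genes were called, 38 of them among the 71.

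ENSRNOG00000011557 differed in its recipient contrast between donor kinds, by 2.64 on the log2 scale (interaction term, edgeR adjusted p = 0.0304). Among animals of prefix 13 alone, with 1 CKD recipient per donor kind, the difference was 1.28. HD-CR5 was the lowest HD-CR library at 4.88 CPM, and CD-CR5 the highest CD-CR library at 3.00 CPM. The call was lost when single libraries, named above, were left out.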

How the results depend on the processing

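In HD-CR against HD-HR (71 genes), RLE scaling gave 69 genes, no filter on low counts 59, DESeq2 259 (all 71 included), limma-voom 44, and a fit of the 2 groups alone 306 (64 of the 71 were tested there, and all 64 were called). The prefix covariate gave 3, prefix 13 alone 10, leaving out the 3 libraries that stand apart 111, and leaving out single libraries 5 to 89. In CD-CR against CD-HR (181 genes), DESeq2 gave 449, the prefix covariate and prefix 13 alone 0, the 2 groups alone 32, the ratio of non-unique alignments 109, leaving out the 3 libraries 18, and leaving out single libraries 48 (CD-HR4) to 359 (CD-HR1). In between were 61 without CD-CR1, 79 without CD-CR2, 92 without CD-HR5, 103 without CD-HR6 and 329 without CD-CR4. The interaction (1 gene) gave 2 by DESeq2, 0 with prefix 13 alone or without the 3 libraries (763 and 390 genes at an unadjusted p under 0.05, edgeR), and 0 to 2 without single libraries (2 without HD-HR1 or CD-HR6). The cause of these shifts was not tested. Fits with libraries left out also had fewer samples, yet some of them called more genes and others fewer. With the replicate number of the titles as a replicate block the counts were 83, 187 and 0 (349 at an unadjusted p under 0.05). Deviations of the 5 same-numbered HD-CR and HD-HR libraries correlated at 0.15, 0.27, -0.20, -0.32 and 0.35. Of the 5 HD-CR libraries, 2 matched their own number best. So few values cannot show whether the numbers pair the animals, and the main fit assumed no pairs. The share of genes called higher was 66.2% at first, 78.3% without HD-CR1, 76.6% without HD-CR2, 55.1% without HD-HR6 and 100% without HD-CR4, HD-CR5 or HD-HR4. No gene named for its change in these same libraries changed direction in the 21 alternatives run for each. Library measures stayed short of the threshold without each library in turn, with a lowest adjusted p of 0.0762 (exact permutation test). With so few libraries no measure could pass alone in these refits, so they do not show that the libraries were alike.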
